A study of Mus musculus with 56 samples.

Results

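The liver-enriched transcription factors described here are the C/EBP proteins encoded by Cebpa, Cebpb and Cebpd, the nuclear receptor HNF4A, the FOXA proteins encoded by Foxa1, Foxa2 and Foxa3, the ONECUT protein HNF6 encoded by Onecut1, and the homeobox protein PROX1. They were chosen by name as factors that define hepatocytes, and all 9 were found among the 23813 genes of the RNA-seq table. All 9 passed the filter on low values in every comparison, with at least 0.1 RPKM (reads per kilobase of transcript, scaled by the authors to the uniquely aligned reads of the library) in at least 4 of the 8 libraries compared.

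RNA was sequenced from whole livers of 12 male mice, 1 library per mouse and 4 mice per group. For 16 days every mouse was fed low iodine chow that contained 0.15% propylthiouracil (PTU), an inhibitor of thyroid hormone synthesis. Hypothyroid wildtype mice (WT PTU) received vehicle, and hyperthyroid wildtype mice (WT PTU+T3) received 5 µg of triiodothyronine (T3), the active thyroid hormone, by injection on the last 4 to 6 days. The hypothyroid L-NCOR1ΔID group (L-NCOR1ΔID PTU) carried a liver-restricted form of the corepressor NCOR1 without the domains that bind the thyroid hormone receptor, on a mixed strain background. By the study's summary of its animals, which is not broken down to the sequenced mice, the mutants were a few months old and younger on average than both WT groups. The driver of the liver restriction, the age of each sequenced mouse and whether the WT mice of the RNA-seq groups were littermates of the mutants are not given in the sources used here, so strain background, age and mutation cannot be told apart.

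Hepatocyte identity rests on a small set of transcription factors that bind each other's genes as well as those of plasma proteins and metabolic enzymes. HNF4A is a nuclear receptor needed for most hepatocyte programmes, FOXA proteins open chromatin at liver enhancers during development, and HNF6 and PROX1 take part in the separation of hepatocytes from bile duct cells and in metabolic control. C/EBPα favours the quiescent metabolic state, whereas C/EBPβ and C/EBPδ are known to be induced by cytokines, cAMP and hormones and to drive acute phase genes. The thyroid hormone receptor binds DNA at pairs of AGGTCA elements. At some of these sites NCOR1 represses genes in the absence of T3, and the study found NCOR1 at only a subset of receptor sites in hypothyroid liver.

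In brief, Cebpb was the member with the largest difference from hypothyroid WT liver, 4.98-fold higher after T3 and 2.5-fold higher in L-NCOR1ΔID mice, where the call was lost under some settings. Hnf4a and Prox1 were modestly higher after T3, by 1.34-fold and 1.51-fold on the deposited scale. Both calls were lost when each library was scaled by its median gene ratio, and neither gene passed the test in the mutant. The remaining 6 members did not pass the threshold in any of the 3 comparisons on the deposited scale. The FOXA genes, Cebpa and Onecut1 are given below with the intervals of their differences.

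The sequence before the start site is shown for the members whose level differed, together with Cebpa as the C/EBP gene that did not pass the test and Foxa1, whose mutant and WT ranges were apart. All are the 250 bases before a RefSeq start (GRCm38.p6), 5′ to 3′ in the direction of transcription, and each matched the mm9 genome at 1 place inside a deposited acetylated region. Capitals mark the TGACG core of a cAMP response element, the TATA box TATAAA, the HNF1 element GTTAAT, the ONECUT element ATCAATA and the forkhead element TGTTTAC on either strand. These motifs do not overlap one another in the sequences shown, and a match is a description of letters only.
Cebpb (mm9 chr2:167514165-167514414, + strand): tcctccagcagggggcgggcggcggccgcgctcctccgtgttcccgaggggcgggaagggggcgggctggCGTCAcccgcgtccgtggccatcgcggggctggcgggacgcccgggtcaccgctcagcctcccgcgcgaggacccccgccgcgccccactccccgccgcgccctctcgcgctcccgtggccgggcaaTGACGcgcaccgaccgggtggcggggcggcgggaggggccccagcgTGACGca
Cebpa (mm9 chr7:35904062-35904311, + strand): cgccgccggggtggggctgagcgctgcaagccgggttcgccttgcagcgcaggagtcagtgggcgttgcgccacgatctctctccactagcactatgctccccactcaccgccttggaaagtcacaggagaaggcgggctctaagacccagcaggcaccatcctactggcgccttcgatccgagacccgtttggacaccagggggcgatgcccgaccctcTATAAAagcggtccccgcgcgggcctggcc
Hnf4a, downstream start, P1 (mm9 chr2:163372641-163372890, + strand): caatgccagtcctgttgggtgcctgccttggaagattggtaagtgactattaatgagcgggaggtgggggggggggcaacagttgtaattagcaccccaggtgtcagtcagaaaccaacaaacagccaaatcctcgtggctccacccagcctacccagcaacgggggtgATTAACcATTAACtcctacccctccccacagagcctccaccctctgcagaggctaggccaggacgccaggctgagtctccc
Hnf4a, upstream start, P2 (mm9 chr2:163332343-163332592, + strand): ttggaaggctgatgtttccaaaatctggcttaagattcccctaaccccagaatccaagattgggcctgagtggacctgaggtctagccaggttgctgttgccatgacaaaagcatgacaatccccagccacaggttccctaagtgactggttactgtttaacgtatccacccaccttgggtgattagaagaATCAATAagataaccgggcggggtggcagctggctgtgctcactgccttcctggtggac
Prox1 (mm9 chr1:191994707-191994956, - strand): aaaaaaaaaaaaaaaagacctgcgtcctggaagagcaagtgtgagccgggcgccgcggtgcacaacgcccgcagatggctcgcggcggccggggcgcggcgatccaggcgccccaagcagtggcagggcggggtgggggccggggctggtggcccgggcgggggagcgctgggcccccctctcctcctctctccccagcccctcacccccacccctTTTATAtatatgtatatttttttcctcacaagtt
Foxa1 (mm9 chr12:58647099-58647348, - strand): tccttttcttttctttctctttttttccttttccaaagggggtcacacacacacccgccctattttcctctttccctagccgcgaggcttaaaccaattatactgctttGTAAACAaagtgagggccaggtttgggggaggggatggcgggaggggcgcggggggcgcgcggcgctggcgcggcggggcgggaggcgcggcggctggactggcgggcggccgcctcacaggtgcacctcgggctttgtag

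The Cebpb window was the richest in G and C of these sequences, at 81.6% against a median of 52.4% over 32851 RefSeq promoters. It held the TGACG core at 3 places, starting 180, 53 and 7 bases before the start. The TGACG core was present in 20.8% of all promoters of the same 300 bases (250 before to 50 after the start) and in 3 of the 12 promoters of the 8 members with an entry. The P1 window of Hnf4a held the HNF1 element in 2 neighbouring copies, 81 and 74 bases before the start. This element occurred in 2 of the 12 promoters of the members and in 7.1% of all promoters. HNF1 is a factor known to drive Hnf4a from this start in adult liver. A TATA box lay 30 bases before the start of Cebpa and 34 bases before the Prox1 start shown. Prox1 has another RefSeq start, further downstream and not shown, whose promoter held none. The TATA box was in 5 of the 12 promoters of the members, against 13.6% of all promoters. The forkhead element of Foxa1 lay 141 bases before the start, and 1 of the 12 promoters of the members held it, against 3.6% of all promoters. None of the 12 promoters of the members held AGGTCA, which 16.3% of all promoters did. The C/EBP element TTGCNNAA was likewise in none of the 12, against 10.8% of all promoters, and no match says only that these letters are not in the window.

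Levels differed widely between members, and RPKM allows the comparison because it is per length. In WT PTU liver Hnf4a was highest at 182 RPKM and Cebpa next at 155 RPKM, ranks 277 and 342 of all genes. Foxa3 followed at 29.7, Prox1 at 18.8, Onecut1 at 16.8, Foxa2 at 12.9, Cebpb at 12.8, Foxa1 at 8.80 and Cebpd at 3.29 RPKM. The ranges of Hnf4a and Cebpa overlapped, as did those of each neighbouring pair from Prox1 to Foxa1. Cebpa lay apart from Foxa3, Foxa3 from Prox1 and Foxa1 from Cebpd. In WT PTU+T3 liver Cebpb moved to the third position at 69.2 RPKM (rank 1083, from 3273), where its range overlapped that of Cebpa at 116 RPKM and lay above that of Foxa3 at 37.8 RPKM. In L-NCOR1ΔID liver Cebpb was also in the third position at 32.2 RPKM (rank 1467), and there its range overlapped that of Foxa3 at 23.8 RPKM. Cebpd was the lowest member in all 3 groups.

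**Figure D1:**
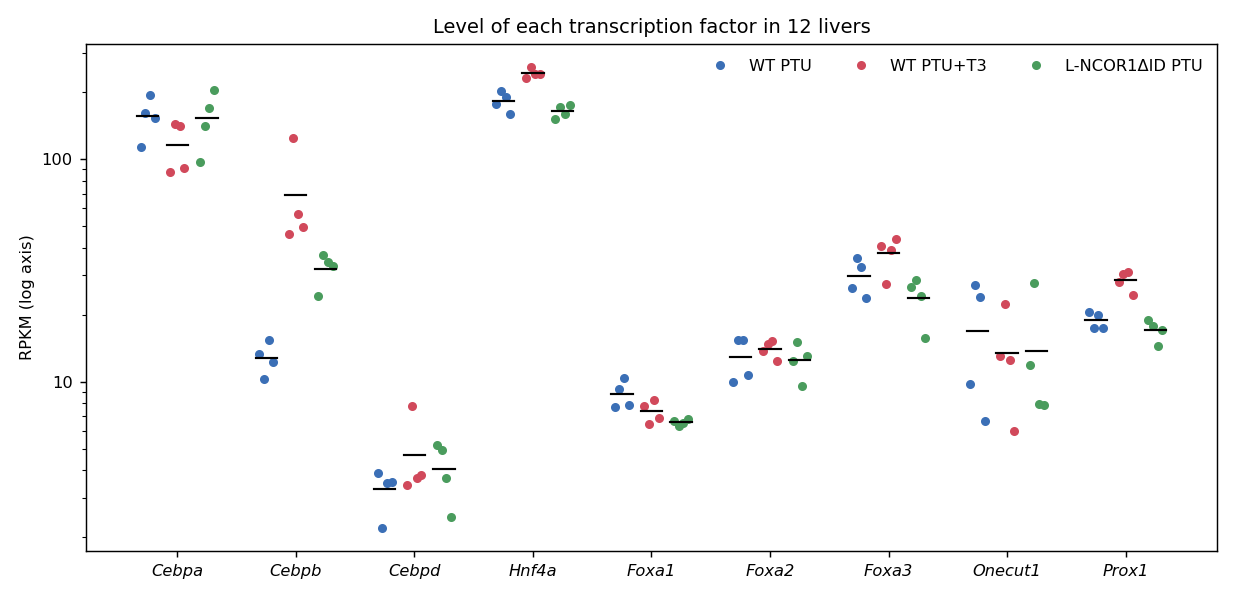
RPKM of the 9 transcription factors in each of the 12 livers, on a log axis. Points are libraries (1 per mouse) coloured by group, and black bars are the means of 4. Cebpb separates the 3 groups without overlap, from 10.3 to 15.3 RPKM in WT PTU, from 24.4 to 37.1 RPKM in L-NCOR1ΔID PTU and from 46.2 to 124.7 RPKM in WT PTU+T3 liver.

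Depth and labels bear on all of these values. The steps between low RPKM values gave 21.2 to 42.4 M reads (M, mega) per library, with the hyperthyroid livers the shallowest (21.2 to 26.0 M), and the member with the least support was Cebpd in WT PTU replicate 2, at 68.1 reads per kilobase. Of 5 thyroid hormone targets fixed as a check of the labels, 4 were called higher and 1 lower after T3 with and without scaling by median gene ratios, with Dio1, the deiodinase that activates thyroid hormone in liver, at 0.719 to 57.7 RPKM in WT PTU and 459 to 641 RPKM in WT PTU+T3 liver. Ncor1 lay at 12.1 to 13.9 RPKM in L-NCOR1ΔID and 14.1 to 15.6 RPKM in WT PTU liver, which does not check the mutation because the value covers the whole transcript and only a part of the gene is lost. All 6 hepatocyte markers were expressed and led by Alb (albumin), at 11609 to 37284 RPKM across libraries. In the deposited RPKM the median of all tested genes was 0.23 higher after T3 on the log2 scale, and scaling each library by its median gene ratio brought this to 0.01. For the members and for the counts of gene lists after T3, values with this scaling are given beside those as deposited.

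The comparison of WT PTU+T3 with WT PTU liver asks which members respond to thyroid hormone. With limma on log2(RPKM + 0.1) and Benjamini-Hochberg adjustment, 3 of 9 members were called higher at an adjusted p under 0.01, against 24.5% of 13941 genes tested, and 0 were called lower, against 7.71% of all genes. At an unadjusted p under 0.05 the same 3 members passed and 0 were lower, against 56.5% of all genes in either direction. The ranges of those 3 did not overlap between groups, as was the case for 35.8% of all genes in the higher direction. Scaled by median gene ratios, 1 member was higher (Cebpb) and 1 lower (Foxa1), against 12.3% and 14% of all genes. The median difference of the members was 0.35 on the log2 scale beside 0.23 for all genes, and 0.11 beside 0.01 after scaling.

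Cebpb encodes C/EBPβ, an inducible member of its family. It was expressed at 13.2, 10.3, 15.3 and 12.3 RPKM in the WT PTU livers and at 46.2, 124.7, 56.7 and 49.3 RPKM in the WT PTU+T3 livers. Every hyperthyroid liver was above every hypothyroid liver, and replicate 2 stood apart from the other hyperthyroid livers. On the log2 scale Cebpb was higher by 2.31 (SE 0.289, n = 4 per group, adjusted p = 0.000271 by limma), or 4.98-fold, a difference larger than that of 98.5% of genes. Without replicate 2 of the WT PTU+T3 group the difference was 1.99, and scaled by median gene ratios it was 2.08 (adjusted p = 0.000791).

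Cebpa, the C/EBP gene that is most abundant in resting liver, did not pass the test. Its levels were 113, 162, 193 and 153 RPKM in WT PTU and 87.6, 143, 140 and 91.0 RPKM in WT PTU+T3 liver. The groups overlapped, with 2 hyperthyroid livers below all hypothyroid livers. The log2 difference was -0.44 (95% interval -0.91 to 0.03, adjusted p = 0.110 by limma), and -0.68 after scaling by median gene ratios (adjusted p = 0.0241). The ratio of Cebpb to Cebpa within a library was 0.0636 to 0.117 in WT PTU and 0.404 to 0.871 in WT PTU+T3 liver. In the L-NCOR1ΔID livers this ratio was 0.162 to 0.265, so that the 3 groups did not overlap in it.

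Cebpd, which encodes the C/EBPδ of the acute phase, was low in all livers. It lay at 3.87, 2.20, 3.51 and 3.56 RPKM in WT PTU and at 3.44, 7.76, 3.69 and 3.81 RPKM in WT PTU+T3 liver. The highest value belonged to the same hyperthyroid replicate 2 as for Cebpb, while the other 3 hyperthyroid livers lay within the WT PTU range. For Cebpd the log2 difference was 0.44 (95% interval -0.17 to 1.05, adjusted p = 0.199 by limma), 0.18 without that library and 0.21 after scaling by median gene ratios.

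Hnf4a showed the narrowest spread of the members after T3, with a coefficient of variation of 4.91%. It lay at 178, 202, 190 and 159 RPKM in WT PTU and at 230, 259, 241 and 241 RPKM in WT PTU+T3 liver. All hyperthyroid livers were above all hypothyroid livers. Hnf4a was higher by 0.42 on the log2 scale (SE 0.0880, adjusted p = 0.00410 by limma), a difference larger than that of 66.7% of genes. The call rested on the setting. Scaled by median gene ratios the difference was 0.18 (adjusted p = 0.161), and without WT PTU replicate 1 or 4 or WT PTU+T3 replicate 2 or 4 the adjusted p lay between 0.0103 and 0.0134.

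Prox1, the homeobox gene needed for hepatocytes to spread and for metabolic gene control, was also higher after T3. Its levels were 20.6, 17.5, 19.9 and 17.4 RPKM in WT PTU and 27.9, 30.6, 31.2 and 24.4 RPKM in WT PTU+T3 liver. All hyperthyroid livers were above all hypothyroid livers. The log2 difference was 0.59 (SE 0.0976, adjusted p = 0.00118 by limma), larger than that of 77.75% of genes. No single library decided the call (adjusted p at most 0.00475 by limma with 1 library left out). Scaled by median gene ratios the difference was 0.35 (adjusted p = 0.0165 by limma), beyond the threshold of 0.01.

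The FOXA genes did not pass the test on the deposited scale, and their differences pointed in different directions. Foxa1 lay at 7.71, 9.27, 10.4 and 7.86 RPKM in WT PTU and at 7.80, 6.43, 8.31 and 6.88 RPKM in WT PTU+T3 liver, a log2 difference of -0.25 (95% interval -0.53 to 0.02, adjusted p = 0.111 by limma). Scaled by median gene ratios, Foxa1 was called lower at -0.49 (adjusted p = 0.00533). Foxa2 lay at 9.995 to 15.4 RPKM in WT PTU and at 12.4 to 15.3 RPKM in WT PTU+T3 liver, with a log2 difference of 0.15 (95% interval -0.20 to 0.49) that turned to -0.09 after scaling. Foxa3, the FOXA gene with the highest level in liver, lay at 26.4, 35.8, 32.8 and 23.7 RPKM in WT PTU and at 40.7, 27.6, 39.1 and 43.9 RPKM in WT PTU+T3 liver. Of the hyperthyroid livers 3 were above all hypothyroid livers and replicate 2 was not, and the log2 difference was 0.35 (95% interval -0.04 to 0.73, adjusted p = 0.120 by limma). It was 0.11 after scaling (adjusted p = 0.626) and 0.49 without replicate 2 (adjusted p = 0.0220). The ratio of Foxa3 to Foxa1 within a library, which library scaling does not touch, was 3.02 to 3.86 in WT PTU, 4.29 to 6.38 in WT PTU+T3 and 2.31 to 4.56 in L-NCOR1ΔID liver.

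Onecut1 varied more within groups than between them. It lay at 9.74, 27.1, 23.9 and 6.63 RPKM in WT PTU, at 13.0, 22.2, 12.6 and 5.98 RPKM in WT PTU+T3 and at 11.9, 27.6, 7.91 and 7.84 RPKM in L-NCOR1ΔID liver. Its coefficient of variation within groups was 49.7% to 68.0%, larger than that of 96.8% or more of the 10663 genes with a mean of at least 1 RPKM. With this spread the log2 difference after T3 was -0.24 with a 95% interval of -1.38 to 0.91, which leaves large changes in either direction undetectable at this spread, and it was -0.47 after scaling. The highest liver of each group was its replicate 2 and the lowest its replicate 4, and the replicate numbers were not given as a shared batch.

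**Figure D2:**
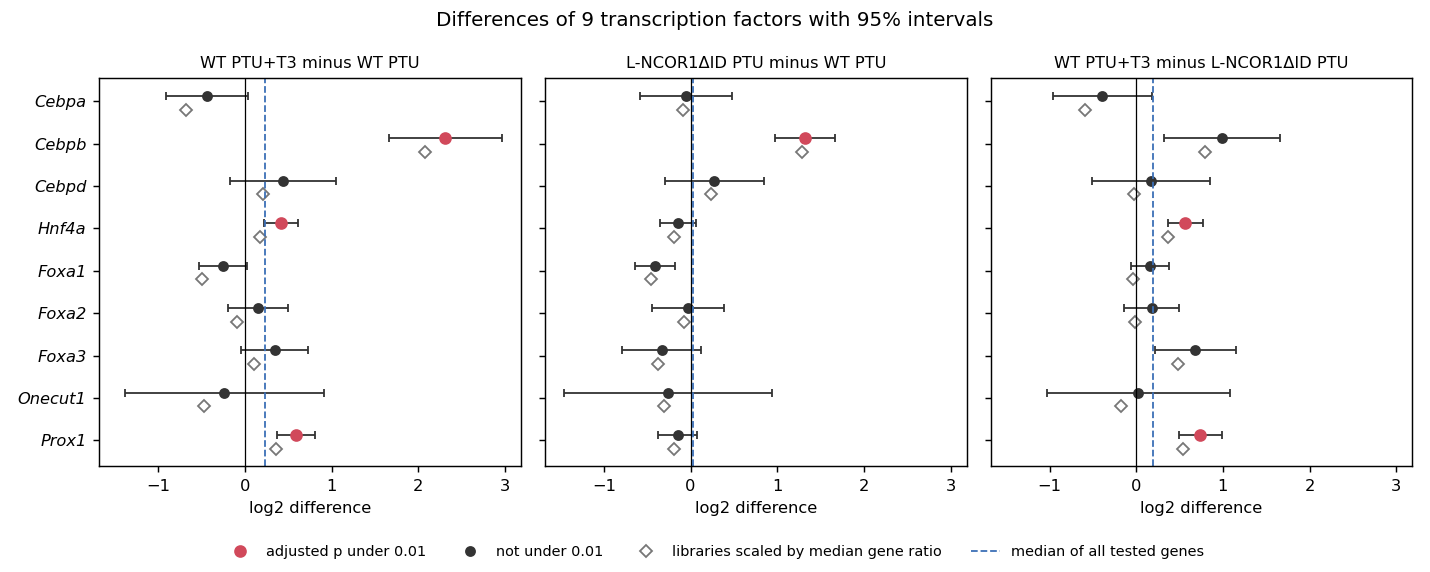
Log2 differences of the 9 genes in the 3 comparisons, with 95% intervals from limma on the deposited RPKM (circles, red where the adjusted p was under 0.01), the same differences after scaling by median gene ratios (open diamonds) and the median of all tested genes (dashed line). Cebpb differs at 2.31 and 1.32 from WT PTU liver, and Hnf4a and Prox1 differ at 0.42 and 0.59 after T3, which scaling brings to 0.18 and 0.35.

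The comparison of L-NCOR1ΔID PTU with WT PTU liver asks which members depend on the domains of NCOR1 that bind the receptor while T3 is low, and it used the same WT PTU libraries as controls as the T3 comparison. Here 1 of 9 members was called higher (Cebpb), against 0.725% of 13790 genes, and 0 were called lower, against 0.544% of all genes. At an unadjusted p under 0.05 Foxa1 also passed, in the lower direction, against 20.5% of all genes in either direction. The groups did not overlap for Cebpb in the higher direction, as for 7.78% of all genes, and for Foxa1 in the lower direction, as for 5.36%. The median difference of the members was -0.15 on the log2 scale beside 0.03 for all genes.

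Cebpb lay at 24.4, 37.1, 34.3 and 33.0 RPKM in the L-NCOR1ΔID livers, all above the WT PTU maximum of 15.3 RPKM. This was a log2 difference of 1.32 (SE 0.154, adjusted p = 0.00259 by limma), or 2.5-fold. The adjusted p was above 0.01 when WT PTU replicate 4 (0.0122) or L-NCOR1ΔID replicate 3 (0.0118) was left out, with all 12 libraries in 1 fit (0.0149) and with the replicate number as a block (0.0194). The difference itself stayed between 1.22 and 1.45 with any 1 library left out.

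Foxa1 lay at 6.66, 6.29, 6.50 and 6.78 RPKM in the L-NCOR1ΔID livers, below all 4 WT PTU livers, with a coefficient of variation of 3.23% that was larger than that of 2.9% of genes. The log2 difference was -0.41 (95% interval -0.64 to -0.18), and it missed the threshold on the deposited scale (adjusted p = 0.0618 by limma) and after scaling (0.03996). The other members overlapped between groups. Hnf4a was at 151, 171, 159 and 175 RPKM, with a log2 difference of -0.15 (95% interval -0.36 to 0.06), and Prox1 was at 18.8, 17.8, 14.5 and 17.0 RPKM, also with -0.15 (95% interval -0.37 to 0.08). Cebpa ranged from 97.2 to 204 RPKM (log2 difference -0.05), Cebpd from 2.46 to 5.19 RPKM (0.27), Foxa2 from 9.54 to 15.1 RPKM (-0.03), Foxa3 from 15.7 to 28.7 RPKM (-0.33) and Onecut1 from 7.84 to 27.6 RPKM (-0.26).

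The direct comparison of WT PTU+T3 with L-NCOR1ΔID PTU liver tests whether the members differ between hormone and mutation. Of the members 2 were called higher in WT PTU+T3, against 15.5% of 14017 genes, and 0 were called lower, against 5.7% of all genes. At an unadjusted p under 0.05 there were 4 higher and 0 lower, against 48.4% of all genes in either direction, and the same 4 passed an adjusted p under 0.05, against 28.5% of all genes in the higher direction. The called members were Hnf4a, at a log2 difference of 0.57 (SE 0.0885, adjusted p = 0.00144 by limma), and Prox1, at 0.74 (SE 0.111, adjusted p = 0.00115 by limma). After scaling by median gene ratios Prox1 kept its call (0.54, adjusted p = 0.00426), while Hnf4a missed the threshold (0.37, adjusted p = 0.0226), and 7.51% of all genes were then called higher. Cebpb was 1.99-fold higher in WT PTU+T3 than in L-NCOR1ΔID liver (log2 difference 0.99, 95% interval 0.32 to 1.66), and its groups did not overlap, as for 28.7% of all genes in this direction. That difference missed the threshold of 0.01 (adjusted p = 0.0266 by limma), fell to 0.67 without WT PTU+T3 replicate 2 and was 0.79 after scaling (adjusted p = 0.0846). Foxa3 was 0.68 higher on the log2 scale (95% interval 0.21 to 1.15, adjusted p = 0.0290 by limma), with overlapping groups.

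For Cebpb, Hnf4a and Prox1 the genes with the closest profile over the 12 libraries were named by the root mean square difference of centred log2 values, among 10663 genes with a mean of at least 1 RPKM. For Cebpb these were Smagp (0.354), Hmox1 (0.387) and Skil (0.409), beside a spread of Cebpb itself of 1.02 on the same scale. Hmox1, which encodes the inducible heme oxygenase, had a mean of 6.08 RPKM in WT PTU, 25.8 RPKM in WT PTU+T3 and 12 RPKM in L-NCOR1ΔID liver. For Hnf4a they were Itfg2 (0.0720), Taf5l (0.0769) and Cpt2 (0.0772), and for Prox1 Dpp8 (0.0881), Med13 (0.101) and Bdp1 (0.107). The small distances for Hnf4a and Prox1 go with their small spreads of 0.258 and 0.346.

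Acute phase genes were read beside Cebpb in the same libraries. Of 18 acute phase genes 6 were called higher after T3, 33.3% of the list against 24.5% of all genes, and 0 lower, and the called genes with the largest differences were the serum amyloid genes Saa2 (log2 difference 6.18), Saa1 (5.27) and Saa3 (2.39). Without WT PTU+T3 replicate 2 there were again 6 higher, against 21.7% of all genes. After scaling by median gene ratios there were 3, or 16.7% against 12.3% of all genes. Lcn2, which encodes lipocalin 2, differed by 3.42 and missed the threshold (adjusted p = 0.0107 by limma). In L-NCOR1ΔID liver 0 acute phase genes were called by limma. At an unadjusted p under 0.05 there were 10 higher and 2 lower, against 20.5% of all genes in either direction. The list's median difference was 0.38 beside 0.03 for all genes. Saa1 was at 9.16 to 14.5 RPKM in WT PTU, 18.5 to 103 RPKM in L-NCOR1ΔID and 159 to 1388 RPKM in WT PTU+T3 liver, so that these 3 ranges were apart as they were for Cebpb. Most of the list did not show this. Between WT PTU+T3 and L-NCOR1ΔID liver 4 of the 18 genes had higher ranges without overlap, against 28.7% of all genes, and Saa2 overlapped. In every group Saa1 was highest in replicate 2 and lowest in replicate 4. The replicate 2 values were 14.5 RPKM in WT PTU, 103 RPKM in L-NCOR1ΔID and 1388 RPKM in WT PTU+T3 liver. WT PTU+T3 replicate 2 was also the library with the highest Cebpb and Cebpd.

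Of 11 immediate early genes tested, which respond within minutes to stimuli, 5 (45.5%) were called higher and 0 lower after T3, against 24.5% and 7.71% of all genes. The largest differences of those called were Egr1 (log2 difference 3.85), Atf3 (2.30) and Fos (1.5), while Jun at 1.75 missed the threshold (adjusted p = 0.0248 by limma). After scaling 2 were higher (Egr1 and Atf3) and 1 lower (Zfp36), against 12.3% and 14% of all genes. In L-NCOR1ΔID liver 0 passed by limma, with 3 higher and 1 lower at an unadjusted p under 0.05, against 20.5% of all genes. Of 10 glucocorticoid and cAMP response genes 2 were called higher after T3, Igfbp1 (3.39) and Sgk1 (1.43), and 2 lower, of which Per1 (-1.17) differed the most. This was 20% in each direction, against 24.5% and 7.71% of all genes. None passed in the mutant, where 1 was higher at an unadjusted p under 0.05, against 20.5% of all genes in either direction. After scaling 1 was higher (Sgk1) and 4 lower, or 10% and 40% against 12.3% and 14% of all genes. Igfbp1 lost its call both after scaling (adjusted p = 0.0140 by limma) and without WT PTU+T3 replicate 2 (0.0161).

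Markers of other liver cells were read in the same way, because whole liver was sequenced and more cells of a type cannot be told apart from more RNA per cell. Of 7 Kupffer cell and macrophage markers 6 were found. All 6 were called higher after T3 with and without scaling, against 12.3% and 24.5% of all genes. They were led by Marco (log2 difference 3.98), Timd4 (2.23) and Cd5l (2.04). Their summed level was 36.9 to 52.6 RPKM in WT PTU, 123 to 205 RPKM in WT PTU+T3 and 43.4 to 119 RPKM in L-NCOR1ΔID liver. In the mutant 0 of 6 were called by limma. At an unadjusted p under 0.05 there were 2 higher, against 20.5% of all genes in either direction. They were Marco (log2 difference 3.16, adjusted p = 0.1002 by limma) and Cd5l (0.83). The other differences there were 0.72 for Adgre1, 0.21 for Vsig4, 0.12 for Clec4f and 0.08 for Timd4. Macrophages also express Cebpb, and the part of these cells in its values was not tested in either comparison. Within the WT PTU+T3 group the library with the highest Cebpb, replicate 2, had the lowest Kupffer sum of 123 RPKM and the lowest Clec4f of 38.2 RPKM. Within the L-NCOR1ΔID group the library with the highest Cebpb was also replicate 2, at 37.1 RPKM. It had the highest Kupffer sum of its group, 119 RPKM, and the lowest Clec4f, 13.9 RPKM.

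Of the neutrophil markers S100a8 and S100a9 were called higher after T3 (log2 differences 3.15 and 3.49), with their list summing to 1.64 to 16.2 RPKM there against 0.124 to 0.705 RPKM in WT PTU liver and highest in replicate 2. After scaling (adjusted p = 0.0103 by limma) and without replicate 2 (0.0117) S100a8 lost its call, and S100a9 kept it. The granule genes Ngp, Camp and Mpo were at or below 0.085 RPKM in every library. Endothelial markers were called higher after T3 in 3 of 6 and stellate cell markers in 2 of 5, against 24.5% of all genes. Their summed levels were at most 33.1 and 20.3 RPKM. In the mutant 0 of either were called, and 1 and 3 were higher at an unadjusted p under 0.05, against 20.5% of all genes in either direction. After scaling 2 endothelial and 0 stellate cell markers were called higher after T3, against 12.3% of all genes. Without WT PTU+T3 replicate 2 the counts were 2 and 1, against 21.7% of all genes. Cholangiocyte markers gave 1 higher and 1 lower of 5 tested (Krt7 and Sox9, each under 2.2 RPKM), and lymphocyte markers none of 3, also after scaling. Krt7 lost its call after scaling, and both Krt7 and Sox9 lost theirs without WT PTU+T3 replicate 2. Of the 6 hepatocyte markers 3 were called lower after T3, Ttr (-1.55), Alb (-1.16) and Hpd (-1.02), and 0 higher, against 7.71% and 24.5% of all genes. After scaling 3 were again lower, with Asgr1 in place of Alb, against 14% of all genes. Without replicate 2 there were 2, Ttr and Hpd, against 6.66% of all genes. The part of cell composition in any member's value was not tested.

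**Figure D3:**
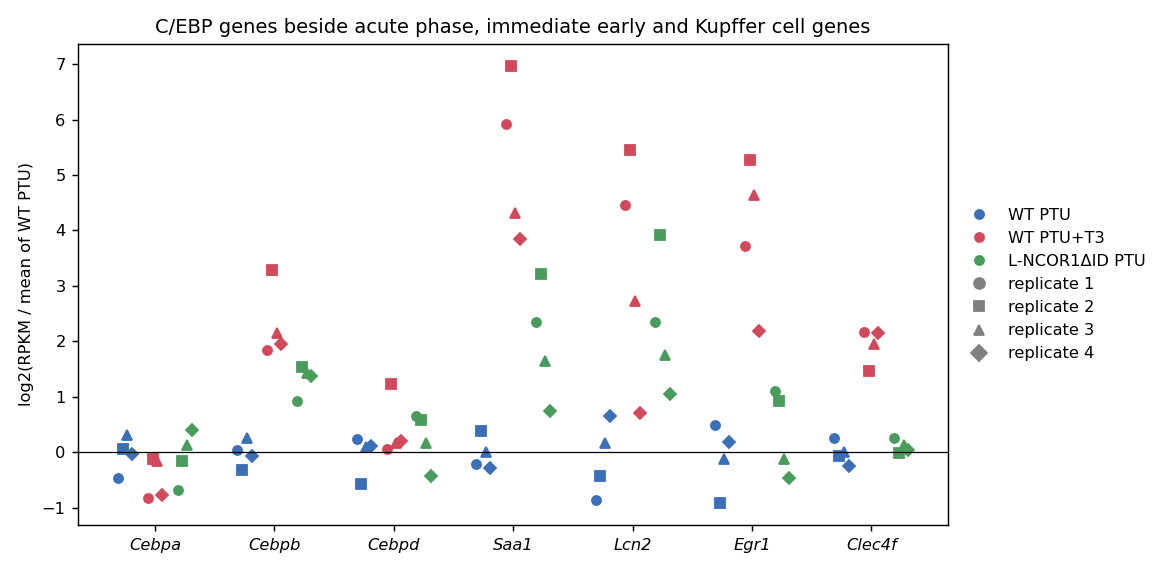
Level of Cebpa, Cebpb, Cebpd, the acute phase genes Saa1 and Lcn2, the immediate early gene Egr1 and the Kupffer cell gene Clec4f in each library, as log2 of RPKM over the mean of the 4 WT PTU livers. Colours are groups and marker shapes are replicate numbers. WT PTU+T3 replicate 2 (red squares) is highest for Cebpb, Cebpd, Saa1, Lcn2 and Egr1 and lowest of its group for Clec4f.

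Genes around the members in the hepatocyte network were described from lists fixed for this purpose. Of 21 other liver transcription factors 5 were called higher and 5 lower after T3, 23.8% in each direction against 24.5% and 7.71% of all genes, with a median difference of -0.22 beside 0.23 for all genes. After scaling the split was 2 higher and 10 lower, against 12.3% and 14% of all genes. The called genes with the largest differences were Atf5, a bZIP factor of the same superfamily as C/EBP, at 77.7 RPKM in WT PTU and 396 RPKM in WT PTU+T3 liver (log2 difference 2.37, adjusted p = 0.000101 by limma), Nr1i3, the xenobiotic receptor CAR, which fell from 173 to 44.4 RPKM (-1.97), and Tbx3 (0.91). In L-NCOR1ΔID liver 0 were called higher and 3 lower, Nr1i3 at 81.7 RPKM (-1.07, adjusted p = 0.00145 by limma), Creb3l3 (-0.65) and Nr1h4, the bile acid receptor FXR (-0.62). Of all genes 0.725% were called higher and 0.544% lower there. At an unadjusted p under 0.05 the list had 3 higher and 6 lower, against 20.5% of all genes in either direction.

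Among 9 relatives and dimer partners of the C/EBP proteins 3 were called higher and 3 lower after T3, with and without scaling. This was 33.3% in each direction, against 24.5% and 7.71% of all genes as deposited and 12.3% and 14% after scaling. Cebpe, which encodes the C/EBPε known from granulocytes, was at 5.86 to 12.7 RPKM in WT PTU and at 0.193 to 2.01 RPKM in WT PTU+T3 liver, a log2 difference of -3.40 (SE 0.513, adjusted p = 0.000733 by limma). In L-NCOR1ΔID liver it was at 8.05 to 12.4 RPKM, within or near the WT PTU range. Atf3 was higher (2.30) and Dbp, a clock output factor, lower (-1.56). Cebpg, the partner C/EBPγ, was 1.01 higher after T3 on the log2 scale and is named here after its values were seen. In L-NCOR1ΔID liver 0 of 9 were called, and 0 passed an unadjusted p under 0.05, against 20.5% of all genes.

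Of 24 hepatocyte genes with known binding sites for the members 1 was called higher and 7 lower after T3. This was 4.17% and 29.2%, against 24.5% and 7.71% of all genes. The list's median log2 difference was -0.33 beside 0.23 for all genes. The called genes included Igfbp1 (3.39), Ttr, the carrier transthyretin (-1.55), and Apoa2, an apolipoprotein of HDL (-1.39). After scaling 0 were higher and 7 lower, against 12.3% and 14% of all genes. Without WT PTU+T3 replicate 2 the counts were 1 and 5, against 21.7% and 6.66% of all genes. The gene called higher was then Cyp7a1 instead of Igfbp1. In L-NCOR1ΔID liver 0 of 24 were called by limma, and the median was -0.15. At an unadjusted p under 0.05 there were 1 higher and 6 lower, against 20.5% of all genes in either direction.

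The deposited list of 37200 regions acetylated at H3K27 or H3K9, marks of active promoters and enhancers, was called over hypothyroid and hyperthyroid WT livers together and holds no read numbers, so that it places active chromatin at the members without a difference between conditions. All 9 members had a start site inside a region, as did 90% of 12314 tested genes with a position and 96.3% of those with a mean of at least 1 RPKM. The regions at the members were long, with a median of 19509 bases. The median was 4107 bases over the 11086 genes with such a region and 4547 bases over those with a mean of at least 1 RPKM. Length is given here as a description of called regions, since a long region can be several elements merged.

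The longest region was at Hnf4a (chr2:163332544-163398646 in GENCODE M1 on mm9, + strand). It ran over 58163 bases (chr2:163371552-163429714), from just before the P1 start to beyond the annotated end of the gene, and 9 of all regions were longer. The P2 start lay in another region further upstream. Foxa3 followed (chr7:19598631-19608887, - strand), with 25583 bases, Cebpa (chr7:35904312-35906945, + strand) with 24065 bases, Prox1 (chr1:191945660-191994559, - strand) with 20624 bases, Cebpb (chr2:167514415-167515918, + strand) with 19509 bases and Onecut1 (chr9:74709728-74737591, + strand) with 19309 bases. Each of these was longer than 95.3% or more of the regions at start sites. Foxa2 (chr2:147868613-147872705, - strand) had 15434 bases and Foxa1 (chr12:58641618-58647108, - strand) 13930 bases. Cebpd (chr16:15887379-15888559, + strand), the member with the lowest level, had the shortest region of 5775 bases, longer than 65.6% of the regions at start sites. The regions of Cebpa, Cebpb, Cebpd, Foxa1, Foxa2 and Foxa3 covered the whole gene, while that of Prox1 covered 17.6% of its long gene.

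Within 100 kb of the start the members had 3 to 12 acetylated regions, with a median of 7, the same as over the tested genes. Cebpa had 12, Cebpb and Onecut1 10, Foxa3 9, Hnf4a and Prox1 7, Foxa2 6, Foxa1 5 and Cebpd 3. Cebpa and Cebpb thus lay among more regions than Cebpd, as a description of 3 genes. Cebpb, with the largest rise, and Cebpa, which did not pass the test, had start regions of similar length and similar numbers of neighbours. This likeness is in length and number only. The study shows a stretch near Cebpb as an example of hyperacetylation after T3, with a receptor site low in NCOR1 in hypothyroid liver. In the list used here, the Cebpb neighbour from 20060 to 38780 bases past the start lies in that stretch. Its part in the rise of Cebpb was not tested.

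**Figure D4:**
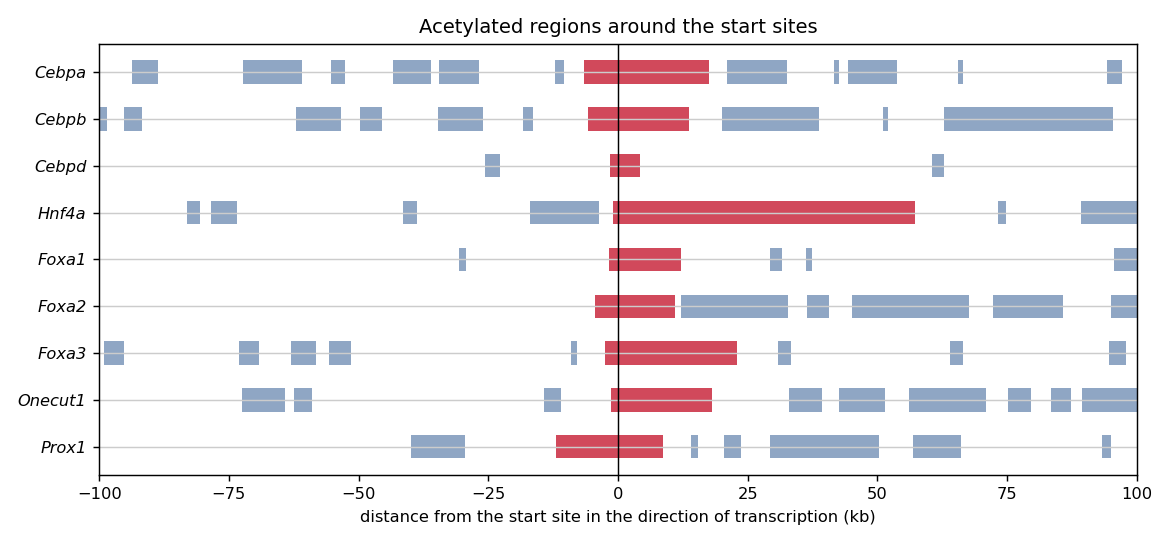
Acetylated regions within 100 kb of the start site of each member, in the direction of transcription. Red marks the region that holds the start and blue the others. The region at Hnf4a spans 58163 bases and that at Cebpd 5775 bases.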

How the data were processed

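STAR was used by the authors for alignment to mm9 and HOMER for counting over RefSeq transcripts, without versions or a strand setting in the sources used here, so that antisense reads cannot be told apart. The values deposited by the authors are RPKM, scaled by uniquely aligned reads, and the first listed transcript stood for each gene. The deposited coordinates of acetylated regions (mm9) were made by the authors from merged H3K27Ac and H3K9Ac calls. Each library had runs from both instrument models, so that no batch could be separated. Reads per library were recovered from the steps of low RPKM values in genes up to 3000 bases (71.0% to 76.7% whole within 0.04 of a read). The members and gene lists were chosen with earlier results of these data known. Columns left unused numbered 0, and 1 transcript without a gene name was dropped.

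Groups were taken from the labels. Values were tested as log2(RPKM + 0.1), using a variance trend in limma (version 3.58.1 under R 4.3.3), with only the 2 groups compared in each fit. Benjamini-Hochberg adjustment ran over all genes that reached 0.1 RPKM in 4 or more libraries. The threshold was an adjusted p under 0.01. The pseudocount understates differences of low genes. Exact two-sided permutation tests of single members, with 70 splits, cannot go below p = 0.0286, which Cebpb, Hnf4a and Prox1 reached after T3 and Cebpb and Foxa1 in L-NCOR1ΔID liver. Replicates were separate mice. On simulated data of the T3 comparison, 19.4%, 59.7% and 97% of genes changed by 0.5, 1 and 2 on the log2 scale were called (13803 genes). All members were named, and from each list up to 3 called genes with the largest difference. Alternatives were the pseudocount, filter, transcript, threshold, variance trend, scaling, a joint fit, a replicate block, each library left out and, for regions and promoters, other windows. Promoter sequences came from RefSeq (GRCm38.p6), where 8 of 9 members had an entry, and were placed by exact match on mm9. Motifs were chosen with the sequences in view. The ChIP-seq tracks of single samples were not analysed here.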

Additional observations from a re-analysis of the deposited data

Results flagged for a closer look

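In the WT PTU+T3 group replicate 2 stood apart from the other 3 livers for 2 of the C/EBP genes. Its Cebpb level was 124.7 RPKM against 46.2 to 56.7 RPKM in the others, and its Cebpd level was 7.76 RPKM against 3.44 to 3.81 RPKM. The gap to the nearest liver divided by the group's range was 0.867 and 0.916. Dixon's test was applied to 27 groups of 4 values, and chance alone marks about 1 in 20 groups. The same library had the highest Saa1, Saa2, Lcn2 and Egr1 of its group. Replicate 2 was also the highest for Saa1 and Saa2 within the WT PTU and within the L-NCOR1ΔID livers.

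The effect of T3 and that of the NCOR1 mutation differed for Hnf4a and Prox1 in the direct test of the 2 groups. The T3 effect minus the mutant effect was 0.57 on the log2 scale for Hnf4a (adjusted p = 0.00144 by limma) and 0.74 for Prox1 (adjusted p = 0.00115 by limma). Of all genes 15.5% were called higher in this test. All 4 hyperthyroid livers were above all 4 mutant livers for each of the 2 genes, as for 28.7% of all genes. After scaling by median gene ratios the differences were 0.37 (adjusted p = 0.0226 by limma) and 0.54 (adjusted p = 0.00426 by limma).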

How the results depend on the processing

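Over 18 alternatives each, the T3 difference of Cebpb kept its direction and its call, and that of Prox1 kept its direction and lost its call after scaling by median gene ratios alone. The call of Hnf4a was lost in 5 and that of Cebpb in the mutant in 4. Scaling by median gene ratios gave 1716 genes higher and 1941 lower after T3 (3413 and 1075 as deposited), with 1 member higher and 1 lower. It gave 1048 and 1293 between WT PTU+T3 and mutant, with 1 member higher. It turned Foxa2 after T3 to -0.0893 and, between WT PTU+T3 and mutant, Cebpd to -0.0231, Foxa1 to -0.0378, Foxa2 to -0.0191 and Onecut1 to -0.17. At an adjusted p under 0.05 the counts were 5244 and 1636 after T3, 344 and 257 in the mutant, and 3995 and 1412 between both, with 4 members higher in the last. All 12 libraries in 1 fit gave 118 lower and 0 members higher in the mutant, and no variance trend gave 63 higher.

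With the replicate block the mutant comparison had 20 genes higher, 25 lower and 0 members higher (Cebpb 1.32, adjusted p = 0.0194), and WT PTU+T3 against mutant had 1152 and 490. Correlations of deviations between libraries of the same number were -0.18 to 0.28. As values over all genes they cannot settle whether the replicate numbers mark a factor shared by some genes. The replicate block changed no other member's call. With 1 library left out the mutant comparison gave 36 to 110 genes higher and 28 to 77 lower, with 0 to 1 members higher. The T3 comparison gave 2438 to 2978 higher and 746 to 994 lower, with 2 to 3 members higher, and WT PTU+T3 against mutant gave 1182 to 1905 and 469 to 767. Uncalled differences changed sign with 1 library left out, where Onecut1 ranged from -0.60 to 0.10 after T3, -0.66 to 0.0458 in the mutant and -0.26 to 0.42 between both. In the mutant Cebpa ranged from -0.21 to 0.15 and Foxa2 from -0.14 to 0.10, and Cebpd from -0.10 to 0.30 between WT PTU+T3 and mutant. The cause of these shifts was not tested. Windows of 50 and 200 kb changed the number of regions at members, and a region overlapping the 1 kb before the start gave the same lengths.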
